A study of Mus musculus with 28 samples.

Results

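The livers described here were 10 of the 28 samples of the series, 5 labelled STAM and 5 labelled control, all at 4 weeks. They were taken by their labels, and 15312 of the 20416 genes in their table, those above the 25th percentile of mean level, were tested. All mice were male and of the C57BL/6 strain. In the STAM model, mice received streptozotocin at postnatal day 2 and a high-fat diet from week 4 of age onwards. The STAM livers carried the diet label STAM HFD and the controls the label Control Diet. The sources do not say whether the controls had been injected without the toxin. The series' design text gives 4 weeks as the age at which the livers were taken, which is also when the high-fat diet began, whereas the sample labels put the 4 weeks beside the diet. How long these mice had eaten the diet is therefore not settled here. No group had streptozotocin alone, so toxin and diet cannot be told apart. The labels number the replicates without saying that each was a separate mouse, so the p-values rest on the variation among samples and that may be technical.

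Streptozotocin is a sugar-linked alkylating toxin that enters cells through the glucose transporter encoded by Slc2a2 and damages their DNA. It destroys the insulin-producing beta cells of the pancreas, and hepatocytes carry the same transporter. In liver, insulin drives the synthesis of fatty acids through SREBP-1c and holds back glucose output through FOXO1. STAM mice are known to pass from fatty liver through steatohepatitis to liver tumours as they age, and these livers are the earlier of the 2 ages sampled. Damage to DNA activates p53, which induces the cell cycle inhibitor p21 (gene Cdkn1a) and other genes. Growth hormone signals through JAK2 and STAT5 in hepatocytes, and its pulses set the differences between male and female liver. Interferons signal through Janus kinases and the factor IRF9 to genes that restrict viruses and present antigens.

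Each library held 16.2 to 20.8 M recovered reads in controls and 18.6 to 22.1 M in STAM livers, and levels are given as CPM, reads relative to the scaled library size, in the order of replicates 1 to 5. A level of 0 allows up to 0.193 CPM, the largest level that 3 reads gave in a library, for counting error only. The markers of hepatocytes were in place, with Alb, the albumin gene, at 105500.0, 123190.0, 111380.0, 109080.0 and 116930.0 CPM in the controls and 98226, 93034, 86867, 86739 and 83880.0 CPM in the STAM livers. A read was found for 14583.6 ± 182 genes in controls and 14995.4 ± 61.3 in STAM livers (SD, n = 5 each), a difference of 411.8 genes (exact permutation test over samples, two-sided, p = 0.00794, the smallest that 252 splits allow, adjusted p = 0.0119 over 3 measures). Control replicate 1 stood apart from the other controls. It differed by more than 2-fold from the median of the other 4 controls in 482 of 10208 genes, against 35 to 139 genes for every other library and its own group. Counts and most tests of the 4-week comparison are therefore given with and without this library. The comparison with 10 weeks is given with all libraries, except for its count of calls. Where a slash joins 2 values, the first is from all 10 libraries and the second from the fit without control replicate 1.

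STAM livers at 4 weeks had more of the messages of p53 targets, of fetal and tumour genes, of interferon response genes and of macrophages, and less of those of growth hormone feedback. With all 10 libraries limma called 1500 of 15312 genes (9.80%) at an adjusted p under 0.05, 999 higher in STAM (6.52%) and 501 lower (3.27%). Without control replicate 1 it called 1821 (11.9%), 1099 higher (7.18%) and 722 lower (4.72%). The counts of list members called at 4 weeks are to be read beside these shares of all genes. The calls shared by both fits numbered 1355, all in the same direction, and of the 466 genes called only without that control 285 were lower. Without STAM replicate 1 limma called 982 genes, and the count of lower genes was 278 without that library, 318 without control replicate 2 and 309 without STAM replicate 5. Called genes that were higher had a median log2 fold change of 0.88 and those that were lower one of -0.42. Scaling by total reads in place of the authors' factors moved the median over all genes up by 0.08, and 83.7% of the called genes were higher, against 66.6% with the authors' scaling and 59.8% with quantile normalization. In these bulk samples, fewer cells of a type and less RNA per cell cannot be told apart.

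**Figure D1:**
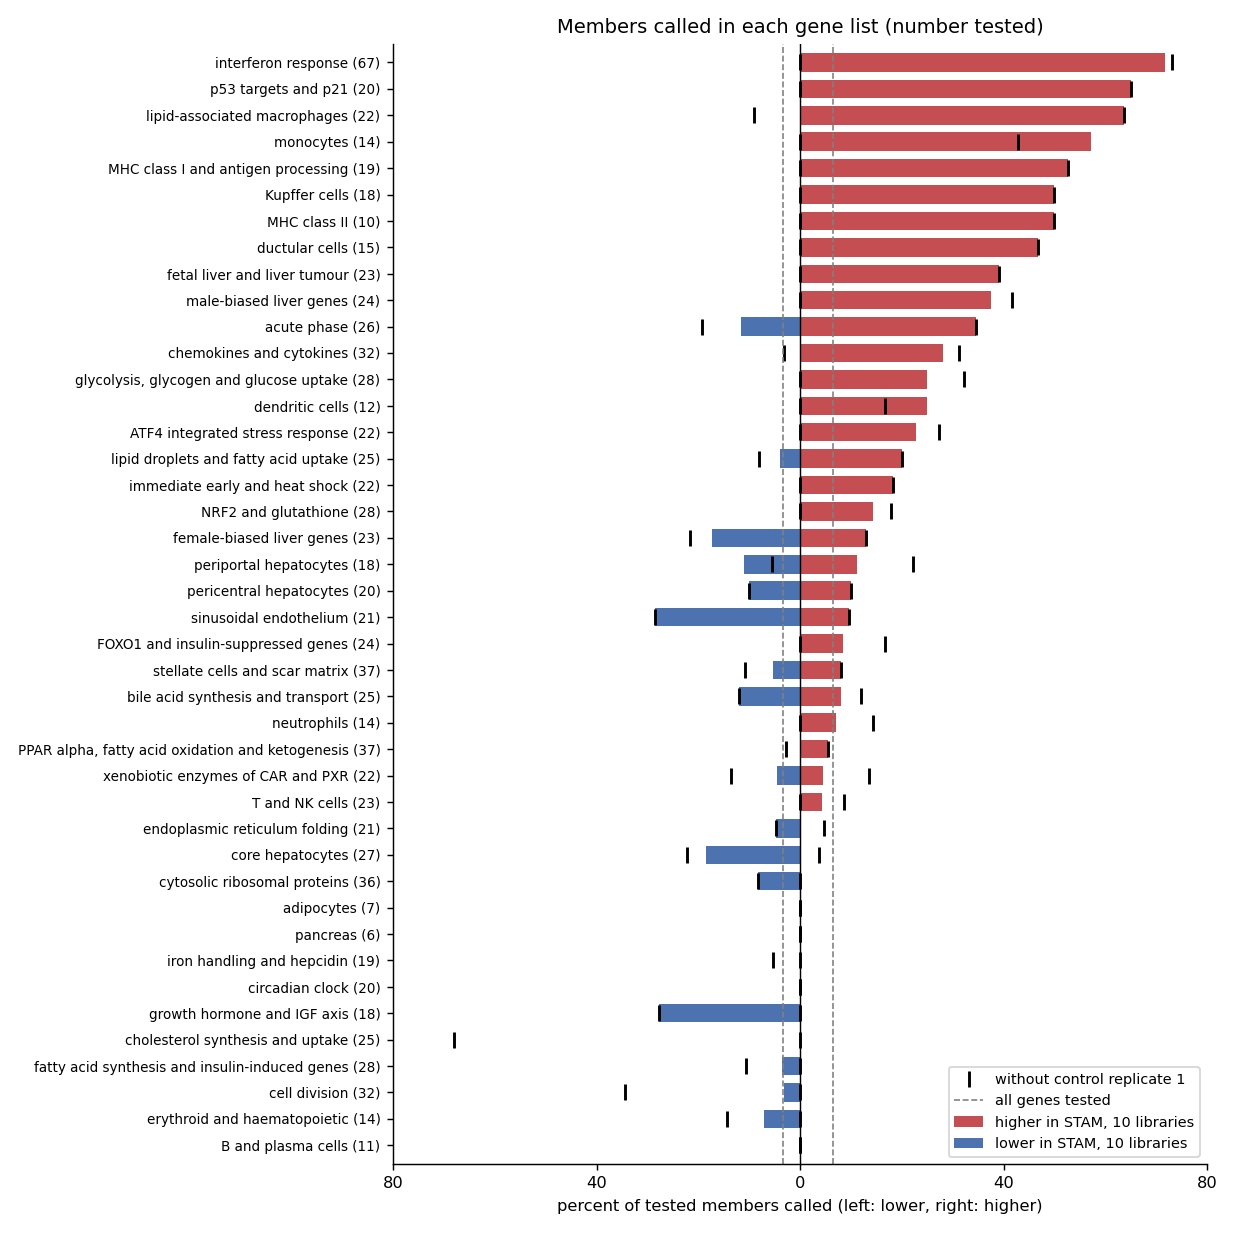
Share of the tested members of each gene list that were called higher (red, right) or lower (blue, left) in STAM livers with all 10 libraries, with black ticks for the fit without control replicate 1 and dashed lines for all genes tested (6.52% higher, 3.27% lower). The lists of the interferon response and of p53 targets had the highest shares called higher (48 of 67 and 13 of 20), and the lists of cholesterol synthesis and of cell division had calls on the lower side that appear mainly without control replicate 1.

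p53 is a transcription factor that responds to DNA damage, and its target p21 halts the cell cycle. Of 20 p53 targets tested, 13 were higher in STAM livers and none lower, with and without control replicate 1, and the median log2 fold change was 0.77 in both fits against 0.01 for all genes tested. Cdkn1a (NM_001111099, chromosome 17, 29090986 to 29100722) stood at 4.64, 10.1, 22.6, 17.5 and 18.6 CPM in the controls and 73, 88.4, 62.9, 82.9 and 91.5 CPM in the STAM livers. The lowest STAM value was above the highest control, as in 6.38% of all genes, and control replicate 1 had the lowest level of all. Cdkn1a rose by 2.62 on the log2 scale (SE 0.40, limma adjusted p = 0.00438) and by 2.26 without control replicate 1 (limma adjusted p = 0.000217), 6.16-fold with all 10 libraries. Eda2r, a receptor of the tumour necrosis factor family induced by p53, was at 1.1, 1.61, 2.24, 1.51 and 1.26 CPM in the controls and 21.9, 10.7, 9.22, 13 and 12.7 CPM in the STAM livers, with STAM replicate 1 highest, and rose by 3.1 on the log2 scale (SE 0.24, limma adjusted p = 1.1e-05) and by 2.99 without control replicate 1 (limma adjusted p = 1.47e-05). Psrc1, which encodes a microtubule-binding protein, was at 0.387, 2.09, 1.61, 1.46 and 1.26 CPM in the controls and 11.5, 6.81, 6.48, 7.62 and 11.6 CPM in the STAM livers. As for Cdkn1a and 6.38% of all genes, the groups did not overlap. Psrc1 rose by 2.82 on the log2 scale (SE 0.40, limma adjusted p = 0.00122) and by 2.43 without control replicate 1 (limma adjusted p = 2.24e-05).

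Phlda3, an inhibitor of the kinase AKT, was at 0.322, 2.8, 2.7, 1.46 and 1.94 CPM in controls against 10.2, 9.14, 6.25, 8.74 and 10.7 CPM in STAM livers. Phlda3 rose by 2.57 on the log2 scale (SE 0.53, limma adjusted p = 0.0135) and by 2.04 without control replicate 1 (limma adjusted p = 8.08e-05). Pmaip1, which encodes the death protein NOXA, rose by 2.07 / 2.02 on the log2 scale (limma adjusted p = 0.000157 / 0.000204), with 0.709, 0.536, 1.26, 1.02 and 0.80 CPM in controls and 3.68, 3.2, 3.02, 3.95 and 3.94 CPM in STAM livers. Ccng1, which encodes cyclin G1, was at 50.03, 54.2, 47.3, 52.5 and 49.1 CPM in controls and 102, 91.4, 77.2, 80.8 and 90.8 CPM in STAM livers. Ccng1 rose by 0.80 on the log2 scale (SE 0.08, limma adjusted p = 7.95e-05) and by 0.80 without control replicate 1 (limma adjusted p = 8.61e-05). Mdm2, the ubiquitin ligase that degrades p53, was at 56.5, 33.3, 39, 40.5 and 34.6 CPM in controls and 72.3, 57.1, 55.7, 57.7 and 56.3 CPM in STAM livers. Control replicate 1 lay within the STAM range and the other 4 controls below it, and Mdm2 rose by 0.57 on the log2 scale (SE 0.13, limma adjusted p = 0.0163) and by 0.70 without control replicate 1 (limma adjusted p = 0.000381). Death genes were split. The 7 targets that were not called included Bax, Bbc3 and Fas, picked out after their values were seen, with log2 fold changes of 0.33, 0.16 and 0.02 (adjusted p in limma = 0.0716, 0.795 and 0.952). Pmaip1 was called, and the death receptor Tnfrsf10b was also picked out after its values were seen. Relative to the median of control replicates 2 to 5, Tnfrsf10b was at 1.12 to 1.89 on the log2 scale in STAM livers and at -0.72 to 0.34 in controls. Relative to the median of control replicates 2 to 5, the median p53 target was higher by 0.67 to 0.99 on the log2 scale in each of the 5 STAM livers and lower by 0.34 in control replicate 1.

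**Figure D2:**
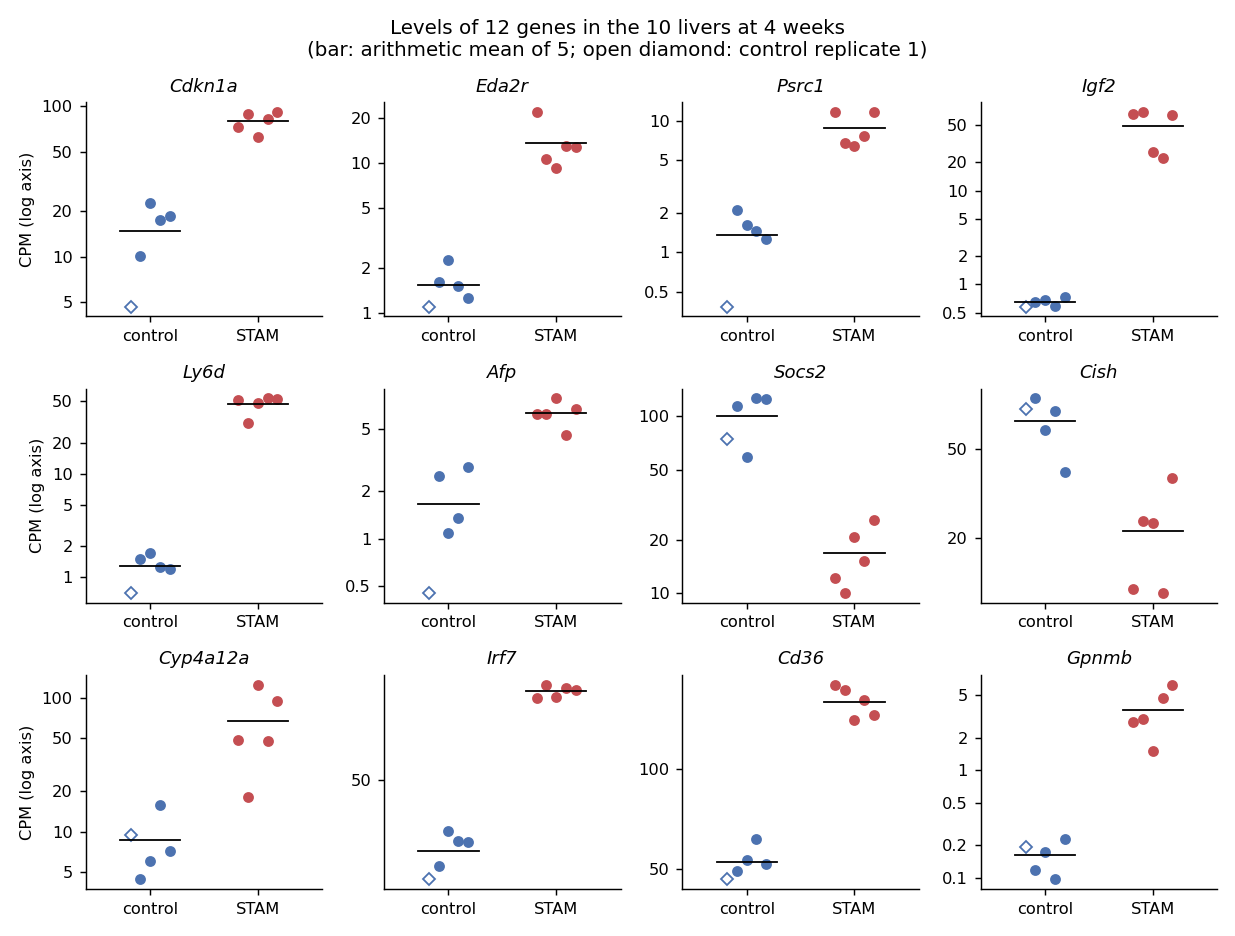
Level in CPM (log axis) of 12 genes in each of the 5 control (blue) and 5 STAM (red) livers, with a bar at the arithmetic mean of each group and an open diamond for control replicate 1. The genes were picked with their values known, several by a rule that requires separate groups. The groups do not overlap in them, which over all genes held for 6.38% (higher) and 3.67% (lower), and Socs2 and Cish are lower in STAM livers and the other 10 higher. Control replicate 1 is the lowest control for Cdkn1a, Eda2r, Psrc1, Igf2, Ly6d, Afp, Irf7 and Cd36.

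Genes of the fetal liver or of liver tumours formed the next group. Of 23 such genes tested, 9 were higher and none lower, with and without control replicate 1, with medians of 0.49 and 0.41. Igf2, a growth factor of the fetus that mouse liver silences after weaning, had the largest rise among called genes whose groups did not overlap and whose mean level was above the median. Igf2 (NM_001122736, chromosome 7, 142650768 to 142661035) stood at 0.58, 0.655, 0.688, 0.583 and 0.743 CPM in the controls and 64.9, 68.8, 25.7, 22.3 and 64.8 CPM in the STAM livers. STAM replicates 3 and 4 were lower than the other 3 STAM livers, yet far above any control. Igf2 rose by 6.06 on the log2 scale (SE 0.32, limma adjusted p = 1.37e-06) and by 6.02 without control replicate 1 (limma adjusted p = 1.47e-05), 66.7-fold with all 10 libraries. Ly6d (NM_010742, chromosome 15, 74762056 to 74763567), a surface protein anchored by a lipid, was at 0.709, 1.49, 1.72, 1.26 and 1.2 CPM in the controls and 51.8, 31.1, 48.1, 53.3 and 52.9 CPM in the STAM livers. It rose by 5.23 on the log2 scale (SE 0.23, limma adjusted p = 1.35e-07) and by 5.04 without control replicate 1 (limma adjusted p = 6.44e-09), 37.6-fold with all 10 libraries.

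Afp, the fetal counterpart of albumin, was at 0.451, 2.5, 1.09, 1.36 and 2.86 CPM in controls and 6.25, 6.25, 7.85, 4.56 and 6.67 CPM in STAM livers. Afp rose by 2.17 on the log2 scale (SE 0.43, limma adjusted p = 0.00892) and by 1.78 without control replicate 1 (limma adjusted p = 0.00149). Spink1, a trypsin inhibitor made by liver tumours, was at 0.0645, 0.596, 0.229, 0.0486 and 0.743 CPM in controls and 4.54, 3.82, 3.5, 3.06 and 5.04 CPM in STAM livers. Spink1 rose by 4.15 on the log2 scale (SE 0.66, limma adjusted p = 0.00276) and by 3.77 without control replicate 1 (limma adjusted p = 0.00429). Tff3, a trefoil peptide of mucous epithelia, was at 2.19, 4.41, 3.61, 0.486 and 0.686 CPM in the controls and 20.3, 15.8, 12.2, 6.53 and 28.7 CPM in the STAM livers. The controls fell into a higher set of 3 and a lower set of 2 libraries for this gene, all below the STAM livers. Tff3 showed a log2 fold change of 3.17 (adjusted p in limma = 0.0208), and its call was lost without STAM replicate 1 (0.0519). Dlk1, a fetal inhibitor of differentiation, had 3 reads over all controls and 43 over all STAM livers, a ratio of 12.2 (exact counting interval 3.92 to 61.7). Gpc3, a surface proteoglycan used as a marker of liver cancer, was not called (log2 fold change -0.06 / -0.40, limma adjusted p = 0.958 / 0.576).

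Some markers of bile duct cells also stood in the list of fetal and tumour genes. The adhesion protein Epcam rose by 1.04 / 0.89 on the log2 scale (limma adjusted p = 0.0106 / 0.0117) and was called in both lists. In the list of ductular cells 7 of 15 members were higher and none lower, with and without control replicate 1, and 3 of the 7 also stand in other lists (Epcam, Cd24a and Spp1). The claudins Cldn4 and Cldn7, of tight junctions, and the chloride channel Cftr showed log2 fold changes of 1.83, 1.78 and 1.63. Cftr was at 0.193, 0.358, 0.344, 0.146 and 0.343 CPM in controls and 0.694, 0.878, 0.71, 1.08 and 0.864 CPM in STAM livers. Cftr rose by 1.63 on the log2 scale (SE 0.34, limma adjusted p = 0.00874) and by 1.53 without control replicate 1 (limma adjusted p = 0.0132). The Cldn7 call was lost on leaving out any of 7 single libraries in turn (limma adjusted p 0.0539 to 0.0891). The bile duct keratins were not called. Krt19 was at 0.322, 1.73, 2.18, 0.972 and 1.37 CPM in controls and 2.3, 2.68, 1.95, 2.26 and 2.02 CPM in STAM livers and was not called (log2 fold change 1.0 / 0.57, limma adjusted p = 0.163 / 0.145). Krt7 was not called (log2 fold change 0.15 / -0.17, limma adjusted p = 0.888 / 0.84). The summed level of the 15 markers was 73.8 to 122.9 CPM in controls and 151.7 to 194.1 CPM in STAM livers. Spp1, which is also a macrophage marker here, made up most of that sum in every STAM liver. The rest of the sum overlapped between the groups. The part of these markers in the fetal list was not tested.

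Growth hormone induces Socs2 and Cish, which feed back on its receptor. Both fell in STAM livers. Socs2 (NM_007706, chromosome 10, 95411490 to 95416857) was at 74.6, 115, 58.8, 126 and 125 CPM in the controls and 12.1, 10.02, 20.8, 15.2 and 26 CPM in the STAM livers. Even the lowest control, replicate 3, was more than 2-fold above the highest STAM liver, and Socs2 fell by 2.59 on the log2 scale (SE 0.31, limma adjusted p = 0.00104) and by 2.68 without control replicate 1 (limma adjusted p = 0.00203). Cish (NM_009895, chromosome 9, 107296689 to 107301961) was at 75.7, 84.1, 60.9, 73.6 and 39.5 CPM in the controls and 11.9, 23.7, 23.3, 11.4 and 37.2 CPM in the STAM livers. Control replicate 5 and STAM replicate 5 came within a few CPM of each other, and Cish fell by 1.73 on the log2 scale (SE 0.36, limma adjusted p = 0.0161) and by 1.68 without control replicate 1 (limma adjusted p = 0.034). Igfals, which stabilises circulating IGF-1, was at 105, 121, 143, 129 and 141 CPM in controls and 67.4, 85.5, 90.03, 67.8 and 73.4 CPM in STAM livers. Igfals fell by 0.74 on the log2 scale (SE 0.11, limma adjusted p = 0.000986) and by 0.81 without control replicate 1 (limma adjusted p = 0.000204). Prlr, the prolactin receptor, fell by 0.76 / 0.73 on the log2 scale (limma adjusted p = 0.00121 / 0.0021). In all, 5 of 18 genes of the growth hormone axis were lower and none higher, beside 3.27% and 6.52% of all genes. Without control replicate 1, 5 were lower, beside 4.72% of all genes, though not all the same genes. Socs3, called with all 10 libraries (-0.71, limma adjusted p = 0.0452), lost its call on leaving out any of 8 single libraries in turn (limma adjusted p 0.0751 to 0.109), and also with total-read scaling, library weights, voom or limma without robust estimation (0.0662, 0.0993, 0.0545 and 0.0517). The growth hormone receptor Ghr, its target Igf1 and the repressor Bcl6 showed log2 fold changes of -0.24, -0.08 and 0.70, none of them called (adjusted p in limma = 0.172, 0.761 and 0.368). Igf1 was at 799, 809, 899, 945 and 1065 CPM in controls and 808, 671, 1066, 856 and 898 CPM in STAM livers.

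Many liver genes are set to different levels in male and female mice by the pattern of growth hormone. Of 24 male-biased genes, 9 were higher in STAM livers and none lower, beside 6.52% and 3.27% of all genes, and 7 were higher with voom. Without control replicate 1, 10 were higher, beside 7.18% of all genes. The median log2 fold change was 1.18, and 1.63 without that library. Reads of the near-identical Mup, Cyp2b, Cyp3a and Cyp4a genes could be assigned to the wrong member, so values of single genes of these families are uncertain. The male-biased list holds many Mup genes, so calls within it are not independent. Mup17, among those called, had 1 read over all controls and 12 over all STAM livers. Its call was lost on leaving out any of 6 single libraries in turn (limma adjusted p 0.0545 to 0.0691). Cyp4a12a (NM_177406, chromosome 4, 115299046 to 115332815), a fatty acid hydroxylase of male liver, was at 9.48, 4.41, 6.08, 15.8 and 7.2 CPM in the controls and 48.5, 18.2, 126, 48.1 and 94.3 CPM in the STAM livers. STAM replicate 2 came close to the highest control, replicate 4. Cyp4a12a rose by 2.82 on the log2 scale (SE 0.55, limma adjusted p = 0.0143) and by 2.89 without control replicate 1 (limma adjusted p = 0.0239). Mup20 (NM_001012323, chromosome 4, 62050235 to 62054117), a major urinary protein, was at 199, 99.7, 31.9, 76.1 and 56.7 CPM in the controls and 514, 244, 686, 444 and 643 CPM in the STAM livers. Mup20 rose by 2.63 on the log2 scale (SE 0.49, limma adjusted p = 0.0117) and by 2.97 without control replicate 1 (limma adjusted p = 0.00341). STAM replicates 1, 3 and 5 had the highest levels of both genes. Relative to the median of control replicates 2 to 5, the median male-biased gene was higher by 1.62, 2.48 and 2.49 in these livers. It was higher by 0.39 and 1.02 in STAM replicates 2 and 4. The controls ran from -0.15 to 0.74, with replicates 1 and 4 at 0.74 and 0.56, so STAM replicate 2 lay within their range.

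Some male-biased genes were not called. Hsd3b5, a steroid dehydrogenase of male liver, was not called (log2 fold change -1.52 / -1.47, limma adjusted p = 0.199 / 0.265), and the carrier Slco1a1 was not called (log2 fold change -0.77 / -0.63, limma adjusted p = 0.538 / 0.66). Female-biased genes were split. Of 23, 4 were lower and 3 higher, beside 3.27% and 6.52% of all genes. Without control replicate 1, 5 were lower and 3 higher, beside 4.72% and 7.18% of all genes. Cyp2b13 (NM_007813, chromosome 7, 26061495 to 26096196) was at 84.6, 114, 127, 109 and 151 CPM in the controls and 18.4, 43.8, 19.4, 16.1 and 6.34 CPM in the STAM livers. Cyp2b13 fell by 2.73 on the log2 scale (SE 0.44, limma adjusted p = 0.00614) and by 2.84 without control replicate 1 (limma adjusted p = 0.00974). Cyp2b9 was at 542, 407, 451, 389.6 and 488 CPM in controls and 195, 284, 173, 186 and 123 CPM in STAM livers. Cyp2b9 fell by 1.29 on the log2 scale (SE 0.19, limma adjusted p = 0.00152) and by 1.22 without control replicate 1 (limma adjusted p = 0.00406). The carrier Slc22a26 fell by 1.96 / 1.97 on the log2 scale (limma adjusted p = 0.0111 / 0.0218) and the sulfotransferase Sult3a1 showed a log2 fold change of -1.93, lost without STAM replicate 1 (adjusted p in limma = 0.0557). The 3 that were higher were all of the Cyp3a family. Cyp3a41a (NM_017396, chromosome 5, 145694049 to 145720136) was at 0.774, 13.1, 19.8, 9.77 and 17.4 CPM in the controls and 165, 157, 125, 203 and 269 CPM in the STAM livers. It rose by 4.45 on the log2 scale (SE 0.84, limma adjusted p = 0.0126) and by 3.61 without control replicate 1 (limma adjusted p = 8.08e-05), and control replicate 1 was more than 10 times below every other library. Cyp3a16 rose by 0.83 / 0.98 on the log2 scale (limma adjusted p = 0.0114 / 0.00062), and Cyp3a44 showed a log2 fold change of 1.99 and lost its call on leaving out any of 8 single libraries in turn (limma adjusted p 0.0731 to 0.105).

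Onecut1, which encodes the hepatocyte factor HNF-6, a partner of growth hormone signalling at sex-biased genes, was also lower. It stood at 22.1, 44.8, 13.8, 58.4 and 29.2 CPM in the controls and 4.96, 10.4, 8.52, 5.17 and 11.9 CPM in the STAM livers, and every STAM liver was below every control. Separation in the lower direction held for 3.67% of all genes (5.75% without control replicate 1). Onecut1 fell by 1.95 / 2.06 on the log2 scale (limma adjusted p = 0.0199 / 0.0257), and the call was lost without STAM replicate 1 (0.0509). Other genes with non-overlapping levels and the largest falls were Adgrf1, an adhesion receptor (-1.74), Sucnr1, the receptor for succinate (-1.61), Slco1a4, a carrier of bile acids and drugs (-1.39), Wsb1, a subunit of a ubiquitin ligase (-1.31) and Pde4b, which degrades cyclic AMP (-1.22). Slco1a4 was at 169.6, 241, 251, 184 and 209.9 CPM in controls and 82.2, 91.5, 85.3, 81.3 and 61.3 CPM in STAM livers. Wsb1 was at 97.5, 81, 62.3, 74.1 and 72.7 CPM in controls and 26.6, 30.9, 32.7, 26.6 and 40.03 CPM in STAM livers. Wsb1 fell by 1.31 / 1.22 on the log2 scale (limma adjusted p = 8.11e-05 / 6.6e-05), and Slco1a4 fell by 1.39 / 1.46 on the log2 scale (limma adjusted p = 3.43e-05 / 1.78e-05). Ildr2, a membrane protein of hepatocytes, was called with all 10 libraries (-1.23, limma adjusted p = 0.0348) and lost its call on leaving out any of 9 single libraries in turn (limma adjusted p 0.0518 to 0.077), control replicate 1 among them (-1.08, 0.0599).

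Interferon response genes rose as a broad group. Of 67 tested, 48 were higher and none lower, and 49 were higher without control replicate 1, with medians of 0.82 and 0.75. By role, 33 of 36 antiviral effectors, 8 of 12 GTPases, 4 of 8 sensors and 3 of 5 transcription factors were higher, and none of 6 ligands and receptors (3 of these had an unadjusted p under 0.05 in limma, none was called by voom, and 1 was called higher when libraries were scaled by total reads). Of these 6 only Ifng is an interferon, and its level was near 0. The count therefore covers receptors almost alone. IRF9 binds the interferon-stimulated response element, a pair of GAAA repeats. The letters GAAANNGAAA were searched on both strands (TTTCNNTTTC on the other) in promoter windows of 300 bases, from 250 before to 50 after each start, of RefSeq on GRCm38.p6, the build of the deposited positions. They occurred in 3.44% of 32851 windows, in 3.89% of 11609 tested genes, and in 23 of the 48 interferon response genes that had a window, 18 of the 32 called higher and 5 of the 16 not called. By role, they were found in 8 of 9 GTPases, 12 of 26 antiviral effectors, 2 of 3 sensors, 1 of 4 transcription factors and none of 6 ligands and receptors. A match describes these letters and is not a measured binding site.
The windows of 3 called genes and of Igtp, which holds a match and was not called, are shown 5′ to 3′ on the strand of the gene, with matches in capitals.
Isg15 (chr4:156200769-156201068, minus strand): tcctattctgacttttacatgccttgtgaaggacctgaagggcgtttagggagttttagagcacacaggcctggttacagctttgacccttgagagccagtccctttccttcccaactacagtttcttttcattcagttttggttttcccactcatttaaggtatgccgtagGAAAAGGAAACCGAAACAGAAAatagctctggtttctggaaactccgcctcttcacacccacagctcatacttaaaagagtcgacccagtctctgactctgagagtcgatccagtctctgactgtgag
Oas1a (chr5:120907476-120907775, minus strand): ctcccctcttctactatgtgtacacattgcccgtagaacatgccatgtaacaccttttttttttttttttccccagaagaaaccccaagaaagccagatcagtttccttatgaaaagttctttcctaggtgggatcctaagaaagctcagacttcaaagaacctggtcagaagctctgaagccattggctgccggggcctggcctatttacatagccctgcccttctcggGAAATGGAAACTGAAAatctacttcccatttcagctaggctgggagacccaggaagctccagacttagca
Ifit1 (chr19:34640639-34640938, plus strand): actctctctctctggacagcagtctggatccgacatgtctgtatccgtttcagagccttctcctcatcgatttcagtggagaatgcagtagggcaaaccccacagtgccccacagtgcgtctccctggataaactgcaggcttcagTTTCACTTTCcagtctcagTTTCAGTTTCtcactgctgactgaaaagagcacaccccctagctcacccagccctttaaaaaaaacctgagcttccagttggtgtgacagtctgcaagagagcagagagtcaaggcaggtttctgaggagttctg
Igtp (chr11:58199306-58199605, plus strand): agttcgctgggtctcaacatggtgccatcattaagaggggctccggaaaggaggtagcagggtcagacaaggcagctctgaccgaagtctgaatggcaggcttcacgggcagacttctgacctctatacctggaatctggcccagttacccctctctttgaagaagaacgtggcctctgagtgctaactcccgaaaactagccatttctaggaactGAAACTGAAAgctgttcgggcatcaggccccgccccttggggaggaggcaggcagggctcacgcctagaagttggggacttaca

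Interferon messages were at or near 0. Ifnb1 had 1 read over all STAM livers and none over the controls, and Ifng was at 0.0645, 0.0596, 0.0574, 0.0972 and 0 CPM in the controls and 0.107, 0.103, 0, 0.094 and 0 CPM in the STAM livers. The receptor genes Ifnar1 and Ifngr1 showed log2 fold changes of -0.16 and -0.07 (adjusted p in limma = 0.163 and 0.706). Of the other receptor genes, Ifngr2 and Ifnlr1 showed log2 fold changes of 0.41 and 1.43 (0.131 and 0.0613), and 0.49 and 1.19 without control replicate 1 (0.0699 and 0.0915). Among the sensors of foreign nucleic acid, Ifih1, which detects long double-stranded RNA, was at 47.7, 51.4, 45.6, 52.9 and 55.9 CPM in controls and 89.4, 79.3, 99.7, 81.5 and 81.5 CPM in STAM livers. It rose by 0.77 on the log2 scale (SE 0.08, limma adjusted p = 0.000107) and by 0.74 without control replicate 1 (limma adjusted p = 0.000137). Ddx58, the sensor RIG-I, was not called (log2 fold change 0.18 / 0.14, limma adjusted p = 0.264 / 0.369), and Zbp1, a sensor of Z-form nucleic acid, showed a log2 fold change of 1.19 and lost its call on leaving out any of 6 single libraries in turn (limma adjusted p 0.0511 to 0.0566). Among the transcription factors, Irf7, which amplifies type I interferon, had separate groups, as did 6.38% of all genes in the higher direction. Irf7 rose by 1.51 / 1.44 on the log2 scale (limma adjusted p = 8.57e-07 / 1.82e-07), Irf9 rose by 0.39 / 0.40 on the log2 scale (limma adjusted p = 0.00575 / 0.0048), and Stat2 was not called (log2 fold change 0.24 / 0.22, limma adjusted p = 0.146 / 0.186).

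Effectors had the highest median of the 5 roles, 0.99, and 0.89 without control replicate 1. Isg15, a ubiquitin-like protein that is coupled to other proteins, was at 8.64, 12.5, 12.7, 13.8 and 14.8 CPM in the controls and 24.5, 26.5, 30.3, 24.2 and 27.5 CPM in the STAM livers. Isg15 rose by 1.11 on the log2 scale (SE 0.13, limma adjusted p = 0.00024) and by 0.98 without control replicate 1 (limma adjusted p = 2.82e-05). Oas1a, which makes the second messenger that activates RNase L, was at 3.16, 3.28, 4.53, 5.49 and 5.72 CPM in controls and 14.9, 17.4, 16.7, 15 and 17.3 CPM in STAM livers, and rose by 1.91 / 1.8 on the log2 scale (limma adjusted p = 2.51e-05 / 1.49e-05). Ifit1, which binds foreign RNA ends, was at 9.86, 16.2, 12.1, 13.5 and 16.7 CPM in controls and 32.1, 42.2, 35.1, 26.2 and 35.6 CPM in STAM livers. Ifit1 rose by 1.33 on the log2 scale (SE 0.16, limma adjusted p = 0.000238) and by 1.22 without control replicate 1 (limma adjusted p = 0.000141). No STAM liver overlapped a control in any of the 3 genes, as in 6.38% of all genes in the higher direction (7.82% without control replicate 1). Usp18, which removes ISG15 and damps the receptor, was at 13.7, 16.2, 12.8, 17.2 and 15.6 CPM in the controls and 35.7, 34.7, 40.6, 36.8 and 39.4 CPM in the STAM livers. Usp18 rose by 1.31 on the log2 scale (SE 0.09, limma adjusted p = 3.98e-06) and by 1.28 without control replicate 1 (limma adjusted p = 4.96e-06). Among the GTPases, which attack the vacuoles of intracellular microbes, Tgtp1 rose by 1.55 / 1.41 on the log2 scale (limma adjusted p = 0.00109 / 0.00117) and Irgm1 rose by 0.67 / 0.58 on the log2 scale (limma adjusted p = 0.00355 / 0.00218). Irgm1 was at 63.1, 79.7, 74.3, 105 and 91.6 CPM in controls and 117, 139, 134, 134 and 125 CPM in STAM livers. Igtp was at 52.6, 71.9, 52.7, 80.3 and 77.8 CPM in controls and 87.5, 124, 89.6, 103 and 76.8 CPM in STAM livers, with overlap, and was not called (log2 fold change 0.53 / 0.45, limma adjusted p = 0.0537 / 0.0886). In each STAM liver the median interferon response gene was above the median of control replicates 2 to 5 by 0.60 to 0.78, and in control replicate 1 it was below that median by 0.31. Apol9a, an interferon-induced apolipoprotein outside the list and singled out after its values were seen, rose by 1.92 / 1.97 on the log2 scale (limma adjusted p = 3.24e-07 / 1.17e-07).

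**Figure D3:**
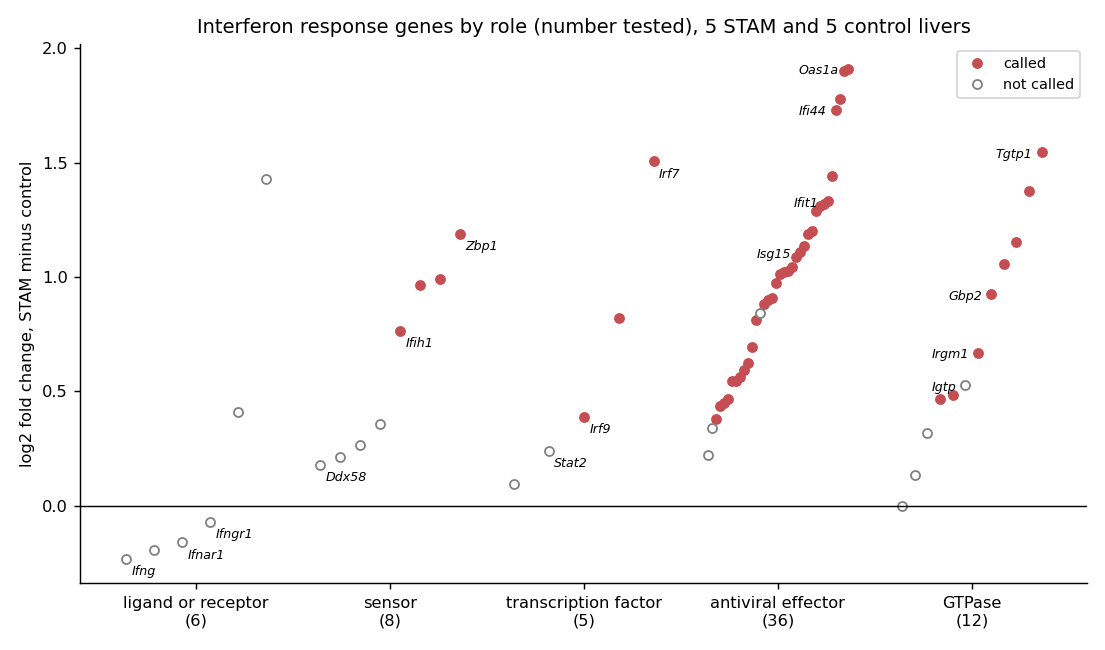
Log2 fold change (STAM minus control, 5 livers each) of the 67 interferon response genes tested, ordered by value within each role, with filled points for called genes and open points for the others. Of the effectors 33 of 36 are called, and none of the 6 ligands and receptors with the authors' scaling (1 with scaling by total reads). Among these 6 only Ifng is an interferon, with a level near 0.

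Genes of antigen presentation, many of them known interferon targets, formed a list of their own. In the list of major histocompatibility complex (MHC) class I and antigen processing, 10 of 19 were higher and none lower in both fits, with a median of 0.42. H2-K1, a classical class I chain, was at 717, 793, 764, 718 and 746 CPM in controls and 987, 1083, 976, 994 and 969 CPM in STAM livers. H2-K1 rose by 0.42 on the log2 scale (SE 0.07, limma adjusted p = 0.00173) and by 0.41 without control replicate 1 (limma adjusted p = 0.00175). Reads of the H2 genes are also shared among near-identical members. The peptide carrier Tap1 was at 15.2, 26.1, 17.5, 22.3 and 19.3 CPM in controls and 32.6, 37.5, 35, 33.9 and 35.6 CPM in STAM livers. Tap1 rose by 0.82 on the log2 scale (SE 0.12, limma adjusted p = 0.00129) and by 0.73 without control replicate 1 (limma adjusted p = 0.000773). The immunoproteasome subunit Psmb8 rose by 0.86 / 0.78 on the log2 scale (limma adjusted p = 0.00062 / 0.000347), and Nlrc5, the activator of class I genes, rose by 0.40 / 0.43 on the log2 scale (limma adjusted p = 0.00733 / 0.00351). Of 10 class II genes 5 were higher in both fits. H2-Ab1, a class II chain of antigen-presenting cells, was at 6.45, 12.8, 12.4, 8.51 and 9.43 CPM in the controls and 19.5, 21.1, 15, 23.3 and 19.4 CPM in the STAM livers. H2-Ab1 rose by 1.02 on the log2 scale (SE 0.18, limma adjusted p = 0.00433) and by 0.87 without control replicate 1 (limma adjusted p = 0.00243). Ciita, the activator of class II genes, was not called (log2 fold change 0.41 / 0.23, limma adjusted p = 0.353 / 0.567).

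Macrophage markers were higher in several lists. Their counts stand beside 6.52% of all genes higher and 3.27% lower, and 7.18% and 4.72% without control replicate 1. Of 22 markers of lipid-associated macrophages, which clear lipid and dead cells, 14 were higher and none lower, and without control replicate 1 14 were higher and 2 lower. Gpnmb, a glycoprotein of lipid-laden macrophages, was at 0.193, 0.119, 0.172, 0.0972 and 0.229 CPM in controls and 2.78, 2.99, 1.51, 4.7 and 6.24 CPM in STAM livers. Gpnmb rose by 4.28 on the log2 scale (SE 0.39, limma adjusted p = 2.94e-05) and by 4.36 without control replicate 1 (limma adjusted p = 2.94e-05). Spp1, or osteopontin, was at 32.8, 64.2, 41.3, 40.2 and 51.7 CPM in the controls and 113, 99.7, 94.3, 126 and 123 CPM in the STAM livers. Spp1 rose by 1.3 on the log2 scale (SE 0.16, limma adjusted p = 0.000478) and by 1.19 without control replicate 1 (limma adjusted p = 0.000347). Lgals3, or galectin-3, rose by 1.43 / 1.36 on the log2 scale (limma adjusted p = 0.00024 / 0.000281), and Cd9 rose by 0.91 / 0.97 on the log2 scale (limma adjusted p = 0.00212 / 0.00167). The 2 that were lower without control replicate 1 were Fabp5, a fatty acid carrier, and Lpl, a lipase. Their log2 fold changes were -1.57 and -0.90 in that fit (limma adjusted p = 0.00516 and 0.000204) and -0.83 and -0.69 with all 10 libraries (0.577 and 0.0641). Of 14 monocyte markers 8 were higher, and 6 without control replicate 1. Ms4a6c rose by 1.35 / 1.25 on the log2 scale (limma adjusted p = 0.000478 / 0.000452), Lyz2, lysozyme of myeloid cells, rose by 0.80 / 0.86 on the log2 scale (limma adjusted p = 0.000291 / 6.72e-05), and the chemokine receptor Ccr2 was at 1.1, 2.8, 2.12, 1.6 and 1.2 CPM in the controls and 4.11, 5.01, 2.26, 4.32 and 3.36 CPM in the STAM livers, with overlap, and rose by 1.14 / 1.0 on the log2 scale (limma adjusted p = 0.0231 / 0.034). The Ccr2 call was lost on leaving out any of 4 single libraries in turn (limma adjusted p 0.0565 to 0.0622).

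Kupffer cells, the resident macrophages, had 9 of 18 markers higher and none lower in both fits, beside 6.52% / 7.18% of all genes higher. In 3 / 4 of the 18 every STAM liver was above every control, beside 6.38% / 7.82% of all genes. The Vsig4 and Folr2 calls were each lost on leaving out any of 6 single libraries in turn (limma adjusted p 0.0507 to 0.0706 and 0.0509 to 0.0694). Cd163, picked out after its values were seen, was not called (log2 fold change -0.99 / -0.84, limma adjusted p = 0.0631 / 0.0991). The summed level of the Kupffer list was 887 to 1296 CPM in controls and 1093 to 1394 CPM in STAM livers, with overlap, and that of the 14 monocyte markers was 96.2 to 100.9 and 148.5 to 194.2 CPM, without. The part of these cells in the interferon and MHC results was not tested. Marco, a scavenger receptor, was at 11.3, 9.18, 7.51, 15.6 and 11.3 CPM in the controls and 31.7, 43, 26.3, 41.6 and 25.6 CPM in the STAM livers. Marco rose by 1.62 on the log2 scale (SE 0.21, limma adjusted p = 0.000611) and by 1.65 without control replicate 1 (limma adjusted p = 0.00177). Clec4f, a lectin characteristic of Kupffer cells, rose by 0.44 / 0.44 on the log2 scale (limma adjusted p = 0.0149 / 0.0176), and Timd4, a receptor of long-resident cells, was not called (log2 fold change 0.35 / 0.41, limma adjusted p = 0.154 / 0.0856). The complement gene C6, which stands in the lists of Kupffer cells and of male-biased genes, was at 16.3, 14.4, 12.3, 20.5 and 12.3 CPM in the controls and 64.5, 35.7, 79.5, 64.4 and 100.5 CPM in the STAM livers. C6 rose by 2.13 on the log2 scale (SE 0.26, limma adjusted p = 0.000752) and by 2.17 without control replicate 1 (limma adjusted p = 0.00225). Among chemokines 9 of 20 were higher, and none of 12 cytokines was called by limma with the authors' scaling or by voom with all 10 libraries, where 4 had an unadjusted p under 0.05. With quantile normalization 6 chemokines were higher and 1 cytokine lower. Without control replicate 1 Il10, which restrains inflammation, was higher (2.97, limma adjusted p = 0.024) and Il18, of the inflammasome, lower (-0.47, 0.0104). Cxcl10, which attracts T cells and is induced by interferons, was at 2.9, 4.23, 3.67, 3.99 and 3.49 CPM in the controls and 16.8, 10.2, 9.58, 12.3 and 9.74 CPM in the STAM livers. It rose by 1.66 on the log2 scale (SE 0.17, limma adjusted p = 7.27e-05) and by 1.58 without control replicate 1 (limma adjusted p = 7.39e-05). Cxcl9 was at 7.09, 10.4, 8.83, 15.2 and 13.9 CPM in controls and 51.8, 32.9, 25.7, 41.9 and 23.6 CPM in STAM livers. Cxcl9 rose by 1.66 on the log2 scale (SE 0.26, limma adjusted p = 0.00361) and by 1.51 without control replicate 1 (limma adjusted p = 0.0054). Ccl2, which attracts monocytes, rose by 1.46 / 1.42 on the log2 scale (limma adjusted p = 0.0109 / 0.0149). The cytokines Tnf, Il1b and Il6 showed log2 fold changes of 0.89, -0.10 and -0.12 (adjusted p in limma = 0.185, 0.894 and 0.952).

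Of other immune markers, 1 of 23 in T and NK cells was higher, near the 6.52% of all genes. Without control replicate 1, 2 of them were higher, near the 7.18% of all genes. In B and plasma cells none of 11 was called in either limma fit (2 had an unadjusted p under 0.05 in each, none was called by voom, and 2 were lower with quantile normalization). In dendritic cells 3 of 12 were higher, against 6.52% of all genes, with 2 without control replicate 1 and 1 with quantile normalization. The 3 were Bst2, which also stands in the interferon list, Cd209a and Clec10a. The Cd209a call was lost on leaving out any of 7 single libraries in turn (limma adjusted p 0.0501 to 0.101). That of Clec10a was lost without any of 4 (0.0551 to 0.0641). The T cell gene Cd8a was at 0.322, 0.834, 0.631, 0.389 and 0.858 CPM in the controls and 0.694, 1.5, 0.798, 1.18 and 0.672 CPM in the STAM livers. Cd8a was not called (log2 fold change 0.69 / 0.50, limma adjusted p = 0.262 / 0.396). Of 14 neutrophil markers 1 was higher, Lcn2, which hepatocytes also make, near the 6.52% of all genes. Without control replicate 1, 2 were higher, beside 7.18% of all genes. There Csf3r, a receptor of neutrophils, was called too (0.63, limma adjusted p = 0.0462, against 0.60 and 0.0543 with all 10 libraries). Lcn2 (NM_008491, chromosome 2, 32384637 to 32387739), a protein that withholds iron from bacteria, was at 4.45, 3.52, 3.79, 3.35 and 3.14 CPM in the controls and 31.5, 41.9, 25.1, 32.9 and 38.7 CPM in the STAM livers. Lcn2 rose by 3.2 on the log2 scale (SE 0.14, limma adjusted p = 1.35e-07) and by 3.28 without control replicate 1 (limma adjusted p = 4.01e-08). The neutrophil gene S100a8 was at 0.0645, 3.69, 0.344, 0.243 and 1.37 CPM in the controls and 0.961, 0.516, 0.887, 3.67 and 0.528 CPM in the STAM livers, with control replicate 1 the lowest and control replicate 2 the highest, and was not called (log2 fold change 0.93 / 0.25, limma adjusted p = 0.641 / 0.896). Ly6g, which marks neutrophils, had 4 reads over all controls and 1 over all STAM livers. The summed level of the neutrophil list was 9.58 to 25.8 CPM in controls and 35.0 to 57.8 CPM in STAM livers, and Lcn2 made up 25.1 to 41.9 CPM of the latter.

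Of 37 genes of stellate cells and scar matrix 3 were higher and 2 lower, beside 6.52% and 3.27% of all genes, and 3 and 4 without control replicate 1. Col1a1, a chain of type I collagen, was at 4.19, 26.3, 51.9, 9.14 and 18.1 CPM in the controls and 21.1, 20.1, 11.6, 28.4 and 33.1 CPM in the STAM livers. Controls ranged more widely than STAM livers, and Col1a1 was not called (log2 fold change 0.46 / -0.02, limma adjusted p = 0.746 / 0.99). Acta2, actin of activated stellate cells, was at 0.451, 3.93, 18.6, 1.6 and 2.17 CPM in the controls and 4.27, 3.92, 2.13, 6.35 and 8.21 CPM in the STAM livers, with control replicate 3 highest, and was not called (log2 fold change 0.79 / 0.17, limma adjusted p = 0.661 / 0.92). Mmp13, a collagenase, was at 0.322, 0.358, 0.115, 0.292 and 0.40 CPM in controls and 1.12, 1.6, 1.95, 2.4 and 2.02 CPM in STAM livers. Mmp13 rose by 2.62 on the log2 scale (SE 0.35, limma adjusted p = 0.000598) and by 2.67 without control replicate 1 (limma adjusted p = 0.000643). Timp1, an inhibitor of matrix proteases, was called at 2.82 (limma adjusted p = 0.0383), and the call was lost on leaving out any of 6 single libraries in turn (limma adjusted p 0.0574 to 0.095) and with quantile normalization (0.0626). The 2 lower genes were Ecm1 and Reln, extracellular proteins of quiescent stellate cells, with log2 fold changes of -0.60 and -0.53. Of 21 genes of sinusoidal endothelium 6 were lower and 2 higher in both fits, and 3 lower and 2 higher when libraries were scaled by total reads. Stab2, the scavenger receptor of these cells, was at 112, 93.2, 117, 98.9 and 111 CPM in the controls and 77.1, 77, 66.7, 86.8 and 73.5 CPM in the STAM livers. Stab2 fell by 0.48 on the log2 scale (SE 0.09, limma adjusted p = 0.00381) and by 0.46 without control replicate 1 (limma adjusted p = 0.00487). Kdr, the receptor for vascular endothelial growth factor, fell by 0.44 / 0.39 on the log2 scale (limma adjusted p = 0.00388 / 0.00405), while Clec4g, Lyve1 and Plvap showed log2 fold changes of -0.13, 0.18 and 0.05, none called.

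Insulin represses the targets of FOXO1 and induces genes of fatty acid synthesis. Of 24 FOXO1 targets and insulin signalling genes 2 were higher, Cebpb and Fbp1, beside 6.52% of all genes, and 4 without control replicate 1. Pck1, the first committed enzyme of glucose output, was at 2841, 2447, 3433, 1820.3 and 2881 CPM in the controls and 3593, 3879, 2488, 3038 and 2954 CPM in the STAM livers. Pck1 was not called (log2 fold change 0.26 / 0.29, limma adjusted p = 0.37 / 0.351). G6pc, which releases glucose, was not called (log2 fold change 0.26 / 0.14, limma adjusted p = 0.441 / 0.677), and the insulin receptor Insr was not called (log2 fold change -0.17 / -0.07, limma adjusted p = 0.353 / 0.583). Igfbp1, which insulin strongly represses, was at 188, 378, 466, 141 and 615 CPM in the controls and 264, 185, 291, 607 and 649.5 CPM in the STAM livers. Igfbp1 was not called (log2 fold change 0.19 / 0.01, limma adjusted p = 0.871 / 0.992). Of 28 genes of fatty acid synthesis and insulin induction 1 was lower, Srebf1, which encodes SREBP-1, beside 3.27% of all genes, and 3 without control replicate 1. Srebf1 was at 265, 312, 400.1, 289 and 270.5 CPM in the controls and 213, 232, 155, 120.2 and 139.8 CPM in the STAM livers. Srebf1 fell by 0.87 on the log2 scale (SE 0.18, limma adjusted p = 0.013) and by 0.92 without control replicate 1 (limma adjusted p = 0.0184). Scd1, the desaturase that makes oleic acid, was at 1993, 21680.0, 20587, 15824 and 17532 CPM in the controls and 19197, 11261, 9100.1, 8721 and 7386 CPM in the STAM livers. Control replicate 1 was far below the other controls, and Scd1 was not called (log2 fold change -0.19 / -0.84, limma adjusted p = 0.906 / 0.0593).

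Uptake and storage of fat did move in single genes. Cd36 (NM_001159558, chromosome 5, 17781690 to 17888959), the importer of fatty acids, was at 46.5, 49.1, 53, 61.5 and 51.6 CPM in the controls and 179, 172, 140.0, 160.4 and 145 CPM in the STAM livers. Cd36 rose by 1.6 on the log2 scale (SE 0.09, limma adjusted p = 8.57e-07) and by 1.56 without control replicate 1 (limma adjusted p = 6.44e-07). Cidec, a coat protein of large lipid droplets, was at 0.516, 0.775, 2.35, 1.02 and 0.40 CPM in the controls and 7.31, 4.13, 4.79, 8.51 and 14.6 CPM in the STAM livers. Cidec rose by 3.08 on the log2 scale (SE 0.48, limma adjusted p = 0.00275) and by 2.91 without control replicate 1 (limma adjusted p = 0.00652). Apoa4 (NM_007468, chromosome 9, 46240844 to 46243458), an apolipoprotein of fat export, was at 119, 125, 123, 120.1 and 96.7 CPM in the controls and 399, 321, 517, 750.3 and 1030.0 CPM in the STAM livers. Apoa4 rose by 2.25 on the log2 scale (SE 0.29, limma adjusted p = 0.00131) and by 2.25 without control replicate 1 (limma adjusted p = 0.00382). STAM replicates 4 and 5 had the highest levels of Cidec and Apoa4. In the list of lipid droplets and fatty acid uptake 5 of 25 were higher and 1 lower, and 5 and 2 without control replicate 1. The lower gene was Vldlr, a lipoprotein receptor, which fell by 0.93 / 0.97 on the log2 scale (limma adjusted p = 0.00447 / 0.00587), and Plin2, the main droplet coat, was not called (log2 fold change 0.53 / 0.43, limma adjusted p = 0.187 / 0.299). Of 37 genes of fat oxidation 2 were higher, Pex11a and Angptl4, beside 6.52% of all genes. The Angptl4 call was lost on leaving out any of 3 single libraries in turn (limma adjusted p 0.053 to 0.0558). Without control replicate 1 the list had 2 higher and 1 lower, and with all 10 libraries 5 were higher when scaled by total reads and 4 with quantile normalization. Cpt1a, the gate of fatty acids into mitochondria, was not called (log2 fold change 0.39 / 0.39, limma adjusted p = 0.0694 / 0.0812). Fgf21, a fasting hormone of liver, was at 1.68, 2.03, 2.12, 1.07 and 1.14 CPM in the controls and 4.59, 1.34, 3.28, 17.3 and 16.8 CPM in the STAM livers. STAM replicates 4 and 5 were far above the rest, and Fgf21 was not called (log2 fold change 1.87 / 1.9, limma adjusted p = 0.126 / 0.167). Of 28 genes of glycolysis and glucose uptake 7 were higher and none lower, and 9 without control replicate 1. Gpi1, of the glycolytic chain, rose by 0.63 / 0.67 on the log2 scale (limma adjusted p = 0.000453 / 0.000199), and Eno1, of the same chain, rose by 0.61 / 0.61 on the log2 scale (limma adjusted p = 0.0035 / 0.00447).

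The counts of 2 lists turned on control replicate 1. Of 25 genes of cholesterol synthesis and uptake none was called by unweighted limma or by voom with all 10 libraries, where 1 had an unadjusted p under 0.05. With library weights 4 were lower, and 17 were lower without that control, with medians of -0.22 and -0.63. Sqle, squalene epoxidase, was at 6.06, 119, 83.7, 123 and 155 CPM in the controls and 96.5, 83.6, 66.7, 71.1 and 78.1 CPM in the STAM livers. Control replicate 1 was more than 10 times below every other library, and the log2 fold change went from 0.27 (limma adjusted p = 0.89) to -0.58 (0.0465). In that library 23 of the 25 genes lay more than 2-fold below the median of the other controls. Relative to the median of control replicates 2 to 5, the median sterol gene was at -2.09 in control replicate 1, at -0.41 to 0.23 in the other 4 controls and at -0.85 to -0.36 in the 5 STAM livers, so that control replicate 3 and STAM replicate 1 overlapped.

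Genes of cell division were likewise far lower in control replicate 1. Of 32 genes 1 was lower with all 10 libraries, the thymidine kinase Tk1, beside 3.27% of all genes. Without control replicate 1, 11 were lower, beside 4.72% of all genes. The medians were 0.15 with all 10 libraries and -0.72 without that control. Mki67, a marker of dividing cells, was at 3.09, 76.9, 78, 125 and 115 CPM in the controls and 58.9, 33.5, 57.1, 68 and 36.5 CPM in the STAM livers. Its 48 reads in control replicate 1 stood against 1291 to 2567 in the other controls. The log2 fold change was 0.01 with all 10 libraries (limma adjusted p = 0.997) and -0.98 without it (0.041). Top2a and Cdk1, of chromosome separation and entry into mitosis, showed log2 fold changes of -0.71 and -0.49 without that library and were not called in either fit. Ccnd1, the cyclin of growth signals, was at 30.9, 126, 142, 109 and 133 CPM in the controls and 223, 236, 160.3, 181 and 133 CPM in the STAM livers, with log2 fold changes of 0.93 and 0.52 (adjusted p in limma = 0.217 and 0.0576). In control replicate 1, 29 of 32 cell division genes lay more than 2-fold below the other controls, and 10 of 14 neutrophil markers and 13 of 28 genes of fatty acid synthesis did so too. What set this library apart was not tested.

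**Figure D4:**
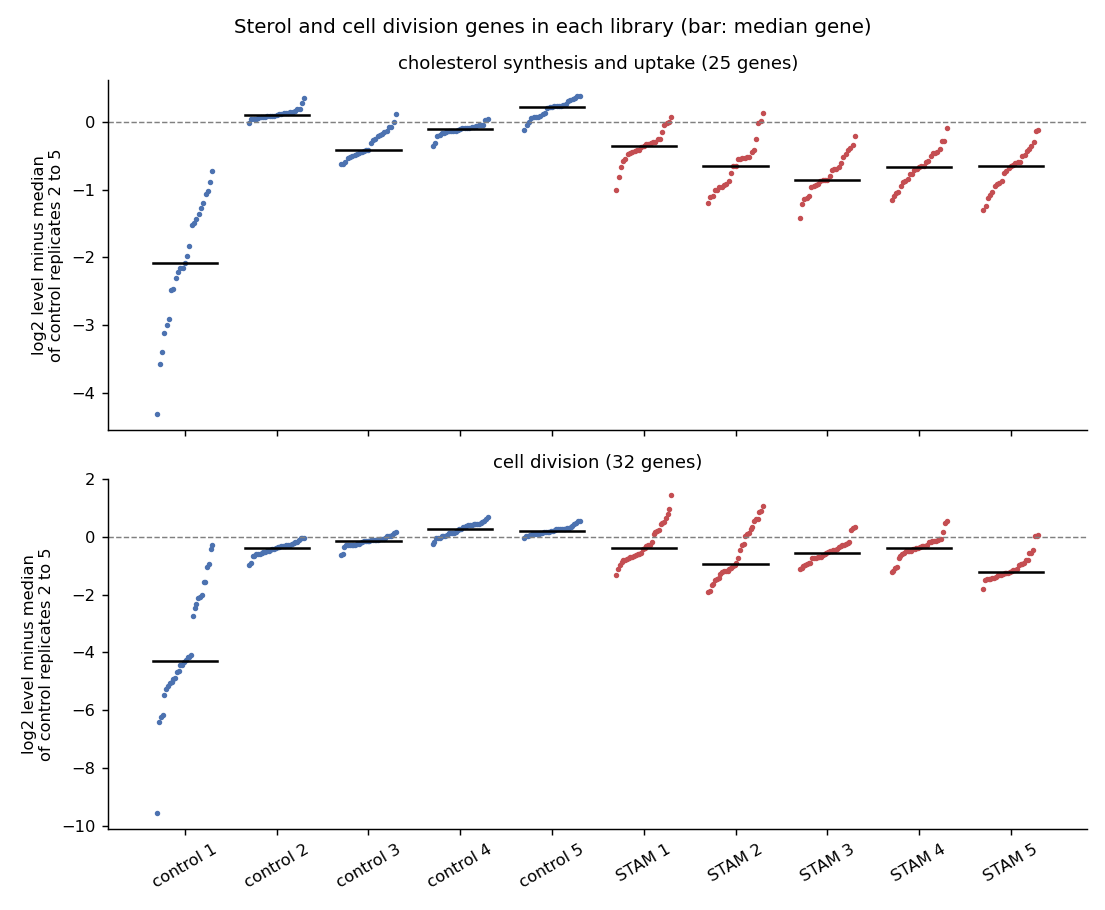
Log2 level of each gene of cholesterol synthesis (top, 25 genes) and cell division (bottom, 32 genes) in each library, relative to the median of control replicates 2 to 5, with a bar at the median gene. Control replicate 1 lies at -2.09 and -4.31, below all 9 other libraries. The STAM medians run from -0.85 to -0.36 and from -1.20 to -0.37, and those of the other 4 controls from -0.41 to 0.23 and from -0.37 to 0.27, so the ranges touch.

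**Figure D5:**
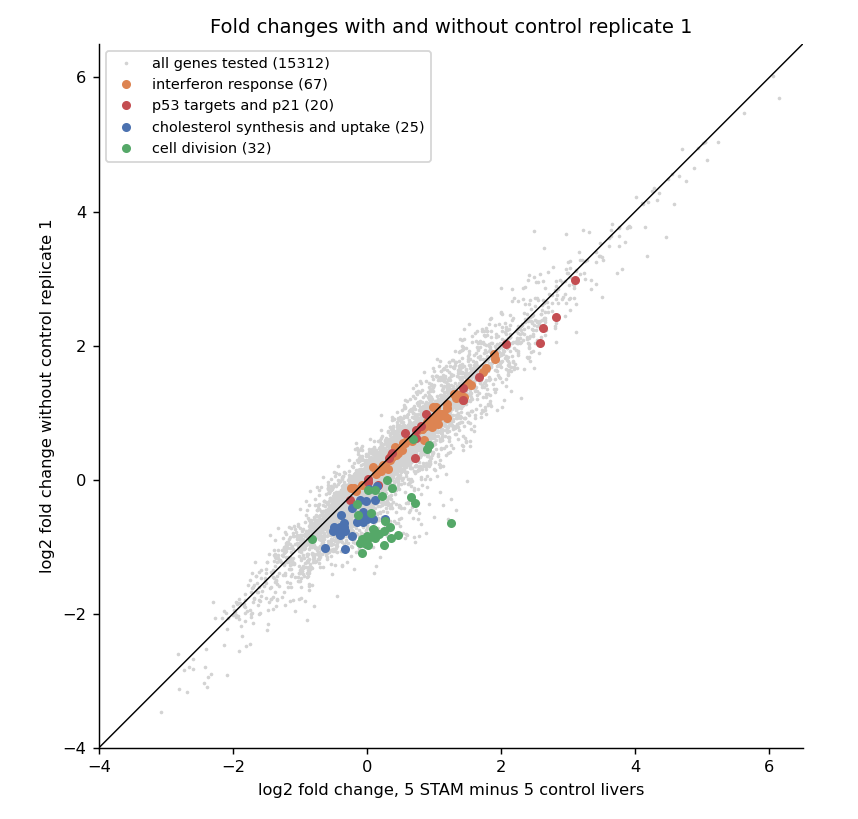
Log2 fold change of each of 15312 genes with all 10 libraries (horizontal) and without control replicate 1 (vertical), with the line of equal values and 1 gene outside the axes. Medians with and without it are 0.82 and 0.75 for interferon response genes and 0.77 in both fits for p53 targets, against -0.22 and -0.63 for cholesterol synthesis and 0.15 and -0.72 for cell division.

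Hepatocyte functions beyond these changed in single genes. The counts in the lists below stand beside 6.52% of all genes higher and 3.27% lower with all 10 libraries. Of 27 core hepatocyte genes 5 were lower with all 10 libraries, and 6 lower and 1 higher without control replicate 1, with medians of -0.26 and -0.19. When libraries were scaled by total reads 2 were lower and 1 higher, and with quantile normalization 3 were lower. Alb showed a log2 fold change of -0.34 (adjusted p in limma = 0.0284) and lost its call on leaving out any of 6 single libraries in turn (limma adjusted p 0.0514 to 0.0763). Its adjusted p in limma was 1 with quantile normalization, 0.659 without robust estimation and 0.0647 with total-read scaling. The factor Hnf4a was not called (log2 fold change -0.02 / 0.03, limma adjusted p = 0.935 / 0.895). Bile acid genes were split, 2 higher and 3 lower of 25, and 3 and 3 without control replicate 1. The exporter Abcc4 was at 9.41, 6.49, 6.94, 8.65 and 9.26 CPM in the controls and 22.6, 33.8, 14.5, 19.9 and 16.6 CPM in the STAM livers. Abcc4 rose by 1.35 on the log2 scale (SE 0.21, limma adjusted p = 0.00184) and by 1.4 without control replicate 1 (limma adjusted p = 0.00263), and the importer Slc10a1 fell by 0.40 / 0.36 on the log2 scale (limma adjusted p = 0.0113 / 0.0143). Cyp7a1, which opens the classical route of bile acid synthesis, was at 151, 255, 14, 159.7 and 206 CPM in the controls and 201, 429, 182, 124 and 214 CPM in the STAM livers. Control replicate 3 was far below the rest, and Cyp7a1 was not called (log2 fold change 0.91 / 1.02, limma adjusted p = 0.549 / 0.541). Cyp2e1, an ethanol-oxidising enzyme of pericentral hepatocytes, was at 6567, 4596, 4894, 4161 and 4296 CPM in the controls and 2866, 2864, 2724, 2418 and 2869 CPM in the STAM livers. Cyp2e1 fell by 0.82 on the log2 scale (SE 0.12, limma adjusted p = 0.00102) and by 0.71 without control replicate 1 (limma adjusted p = 0.000164). Of 20 markers of pericentral hepatocytes 2 were higher and 2 lower in either fit. Of 18 periportal markers 2 were higher and 2 lower, and 4 and 1 without control replicate 1. With total-read scaling 1 of each list was lower, and with quantile normalization 1 periportal marker was. In the list of drug-metabolising enzymes 1 of 22 was higher and 1 lower, and 3 and 3 without control replicate 1. With total-read scaling 2 were higher, and with quantile normalization 0. Cyp2c29, a cytochrome P450 of that list, fell by 0.78 / 0.70 on the log2 scale (limma adjusted p = 0.00245 / 0.00244).

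Acute phase genes were split, with 9 of 26 higher and 3 lower, and 9 and 5 without control replicate 1. With total-read scaling 1 was lower. Saa1, serum amyloid A, was at 16.4, 10.2, 12.4, 15.3 and 11.2 CPM in the controls and 75, 81.5, 54.9, 70.1 and 59.99 CPM in the STAM livers. Saa1 rose by 2.39 on the log2 scale (SE 0.14, limma adjusted p = 1.4e-06) and by 2.48 without control replicate 1 (limma adjusted p = 8.24e-07). Orm2, an orosomucoid, was at 13.3, 2.44, 2.12, 3.69 and 4.29 CPM in the controls and 23.1, 32.5, 20.6, 21.1 and 21.2 CPM in the STAM livers, with control replicate 1 the highest control, and rose by 2.52 on the log2 scale (SE 0.45, limma adjusted p = 0.00792) and by 2.95 without control replicate 1 (limma adjusted p = 1.04e-05). The fibrinogen chain Fgb showed a log2 fold change of -0.39, and its call was lost without control replicate 2 or STAM replicate 1 or 3 (adjusted p in limma = 0.0569, 0.0595 and 0.0529) and without robust estimation (0.0576). Among stress responses, 5 of 22 targets of the amino acid stress factor ATF4 were higher, and 6 without control replicate 1. Slc7a11, the cystine importer, had 4 reads in controls in all and was at 0.641, 0.619, 1.15, 1.41 and 1.82 CPM in STAM livers. It rose by 4.69 on the log2 scale (SE 0.68, limma adjusted p = 0.00106) and by 4.93 without control replicate 1 (limma adjusted p = 0.000748). Asns, asparagine synthetase, rose by 1.53 / 1.35 on the log2 scale (limma adjusted p = 0.0127 / 0.020), and Gdf15, a stress hormone, showed log2 fold changes of 1.35 and 1.59 (adjusted p in limma = 0.0554 and 0.0178).

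Of 28 NRF2 and glutathione genes 4 were higher, and 5 without control replicate 1. Gpx2, a glutathione peroxidase of epithelia, was at 0.0645, 0.0596, 0.0574, 0.0972 and 0.172 CPM in the controls and 1.49, 3.2, 1.51, 2.02 and 1.92 CPM in the STAM livers. Gpx2 rose by 4.35 on the log2 scale (SE 0.37, limma adjusted p = 1.87e-05) and by 4.28 without control replicate 1 (limma adjusted p = 2.24e-05). Srxn1, which repairs peroxiredoxins, rose by 1.0 / 0.90 on the log2 scale (limma adjusted p = 0.00109 / 0.000856), whereas Nqo1, a classical target, was not called (log2 fold change 0.41 / 0.31, limma adjusted p = 0.41 / 0.577). Hspa1b, a heat shock protein, was at 2.26, 4.83, 3.5, 4.86 and 5.09 CPM in the controls and 13, 22.9, 9.45, 9.92 and 11.9 CPM in the STAM livers. Hspa1b rose by 1.69 on the log2 scale (SE 0.28, limma adjusted p = 0.00316) and by 1.49 without control replicate 1 (limma adjusted p = 0.00224), and was 1 of 4 genes called higher among 22 of the immediate early and heat shock list. The near-identical Hspa1a rose by 2.11 / 1.71 on the log2 scale (limma adjusted p = 0.0121 / 0.0081), and reads may be split between both. In the list of endoplasmic reticulum folding 1 of 21 was lower, beside 3.27% of all genes, and 1 was higher and 1 lower without control replicate 1. With total-read scaling 1 was higher and 0 lower, and with quantile normalization 0 were lower. In the list of ribosomal proteins 3 of 36 were lower, and 1 with either of these scalings. None of 20 circadian clock genes and none of 19 genes of iron handling was called by limma with the authors' scaling or by voom with all 10 libraries, where 0 and 5 had an unadjusted p under 0.05. With quantile normalization 2 iron genes were lower, and 1 without control replicate 1. Hamp2, a copy of the iron hormone hepcidin, showed log2 fold changes of -2.42 and -2.79 with and without control replicate 1 (adjusted p in limma = 0.0735 and 0.0459). Per2, of the clock, was at 17.5, 21.7, 20.5, 16.5 and 16.1 CPM in the controls and 44.6, 88.9, 14.9, 9.21 and 11.4 CPM in the STAM livers, with STAM replicates 1 and 2 highest, and was not called (log2 fold change 0.32 / 0.30, limma adjusted p = 0.821 / 0.844).

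Tissue from outside the liver was looked for with 3 lists. Of 21 pancreas genes 12 had no read in any library, Ins2 had none, Prss2 had 1 read in all, and none of the 6 tested was called by limma with any of the 3 scalings or by voom (1 had an unadjusted p under 0.05). Adipoq, a hormone of fat cells, was at 0, 0.0596, 2.35, 0 and 0 CPM in the controls and 0, 0.0516, 0, 0 and 0.672 CPM in the STAM livers, with control replicate 3 highest and STAM replicate 5 next. The summed level of 9 adipocyte markers was 6.64 to 31.9 CPM in controls and 9.81 to 16.7 CPM in STAM livers, and none of 7 tested was called by limma with any of the 3 scalings or by voom (0 had an unadjusted p under 0.05). Of 14 erythroid and haematopoietic genes tested 1 was lower, beside 3.27% of all genes, and 2 without control replicate 1. The lower gene in the first fit was the spectrin gene Sptb, and Alas2, of haem synthesis in red cells, was not called (log2 fold change 0.26 / 0.10, limma adjusted p = 0.485 / 0.744).

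Genes outside the lists, singled out after their values were seen, included the following. Smpd3, a sphingomyelinase, was at 5.09, 4.65, 3.27, 4.08 and 3.89 CPM in the controls and 13.4, 17.6, 17.1, 16.5 and 15.9 CPM in the STAM livers. Smpd3 rose by 1.95 / 2.02 on the log2 scale (limma adjusted p = 3.13e-06 / 1.13e-06). Gpc1, a surface proteoglycan, was at 2.97, 2.62, 3.9, 4.28 and 2.63 CPM in the controls and 13.3, 12, 12.9, 11.2 and 15.3 CPM in the STAM livers. Gpc1 rose by 2.0 / 1.97 on the log2 scale (limma adjusted p = 1.16e-05 / 1.47e-05). Osbpl3, an oxysterol-binding protein, was at 2.06, 2.32, 1.26, 1.02 and 2.23 CPM in controls and 10.3, 8.26, 7.45, 8.93 and 15.3 CPM in STAM livers, and rose by 2.51 / 2.58 on the log2 scale (limma adjusted p = 8.69e-05 / 0.000146). Zbtb16, a transcription factor induced by glucocorticoids, was at 10.3, 25.9, 13, 15.7 and 16.9 CPM in controls and 71.5, 85.2, 50.9, 49.4 and 67 CPM in STAM livers. Zbtb16 rose by 2.03 / 1.88 on the log2 scale (limma adjusted p = 0.000601 / 0.000747).

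The STAM effect at 4 weeks was set against that in 5 STAM and 5 control livers at 10 weeks, from male C57BL/6 mice that also carried the labels STAM HFD and Control Diet, by a test of the difference in a single limma model. Of 15022 genes tested 3011 (20.0%) differed, 1335 with a higher log2 fold change at 10 weeks (8.89%) and 1676 with a lower one (11.2%). Without 4-week control replicate 1 the count was 3802, and the genes and lists below are given with all libraries only. The 2 tables were normalized separately, so only effects within each are compared. The STAM effect on Igf2 was 6.06 at 4 weeks and 1.0 at 10 weeks, a difference of -5.06 (SE 0.62, limma adjusted p = 3.91e-05). Ly6d went the other way, to 7.09, a difference of 1.85 (limma adjusted p = 0.0112), as did the p53 target Psrc1, by 3.63 (0.00628). For Cdkn1a the difference of 1.16 was not called (0.131). Socs2, lower at 4 weeks, showed a log2 fold change of 0.90 at 10 weeks, a difference of 3.49 (adjusted p in limma = 3.11e-05). The male-biased Cyp4a12a, higher at 4 weeks, stood at -0.05 at 10 weeks (0.00418 for the difference), and the female-biased Cyp3a41a at -0.43 (0.00162). Of the interferon response genes 6 had a higher fold change at 10 weeks and 18 a lower one, the latter including Irgm1, which differed by -1.07 (limma adjusted p = 8.08e-05). Of 37 genes of stellate cells and scar matrix 20 had a higher fold change at 10 weeks and none a lower one.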

How the data were processed

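Poly(A) RNA of livers was sequenced in pairs with a stranded kit, per the labels' protocols, and the submitters' processing notes list STAR 2.4.2a and mm10. The read counter and the annotation were not given in the sources used here. Values deposited by the authors were log2 CPM per gene and sample, scaled within each table, together with their own log2 fold changes and p-values. The authors' deposited table held 1433 genes with an adjusted p under 0.05, of which limma called 1220, all in the same direction. The deposited values were whole reads plus a prior averaging 0.25 reads (100% whole within 0.05 reads), and levels are printed as CPM with that prior removed. Because the unit was log2 and not counts, limma 3.58.1 (R 4.3.3, statmod 1.5.0; trend and robust variance) was fitted on the deposited log2 values of genes above the 25th percentile of mean level, two-sided, with Benjamini-Hochberg adjustment and calls under 0.05. Log2 fold changes carry the prior and understate changes of low genes. The steps were tested on simulated data. Replicates differed beyond sampling noise in every pair (chi-square per degree of freedom at least 12.1).

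Named genes were the 12 highest and 12 lowest log2 fold changes among called genes without overlap and above the median level, the key genes of 42 lists, and up to 5 called members per list and direction. Genes outside this rule are said to be so in the text or are Bax, Bbc3, Fas, Fabp5, Lpl, Il10, Il18, Csf3r, Ifngr2 and Ifnlr1, chosen after their values were seen. Some genes under the rule are not reported here. The samples and lists were chosen with earlier results of these data known. RefSeq (GRCm38.p6) matched 19408 symbols. Positions are mm10 with 1 added to the deposited start. Near-identical families are uncertain.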

Additional observations from a re-analysis of the deposited data

Results flagged for a closer look

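Among 154 gene and group pairs for which levels are given, 13 had a library far from the other 4 of its group, by Dixon's criterion at 95%, which chance exceeds in about 1 in 20 groups. Of the 13, 5 lay in control replicate 1 and were low there. On the log2 CPM scale Mki67 was 1.64 in that library against 6.27 to 6.96 in the other controls, Sqle 2.60 against 6.39 to 7.28, Scd1 10.96 against 13.95 to 14.4, Ccnd1 4.95 against 6.77 to 7.15 and Cyp3a41a -0.35 against 3.29 to 4.31. In other controls, Cyp7a1 was low in replicate 3 (3.81 against 7.24 to 8.0), as was Mmp13 (-2.97 against -1.71 to -1.27). Control replicate 5 was low for Apoa4 (6.6 against 6.89 to 6.96) and Ifng (-6.25 against -3.83 to -3.18), where it had no read. In STAM livers, replicate 2 was low for Ly6d (4.96 against 5.59 to 5.74) and high for H2-K1 (10.08 against 9.92 to 9.96) and Orm2 (5.02 against 4.36 to 4.53), and replicate 1 was high for Mdm2 (6.18 against 5.80 to 5.85).

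The STAM effect differed between 10 and 4 weeks by limma's test of the difference for 7 of the 8 genes whose age difference is given. On the log2 scale, the effect at 10 weeks minus that at 4 weeks was -5.06 for Igf2, -4.89 for Cyp3a41a, -2.86 for Cyp4a12a and -1.07 for Irgm1. It was 3.63 for Psrc1, 3.49 for Socs2 and 1.85 for Ly6d.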

How the results depend on the processing

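The count of 1500 calls ran from 982 (without STAM replicate 1) to 1821 (without control replicate 1) as each library was left out, and from 1115 to 1965 under the other alternatives apart from the replicate block. Calls without control replicate 1 ran from 1194 to 1691 as each further library was left out. Those of the age difference ran from 2435 (without 4-week control replicate 2) to 3802 (without 4-week control replicate 1). With the replicate number as a block 848 genes were called, 838 without control replicate 1, and 3 genes of the growth hormone axis were lower. Same-numbered samples did not deviate together (r -0.118 to -0.00085, and no sample was closest to its own number). Weak correlations cannot show that samples were unpaired, and the labels name no pairing, so this is not settled here. With only genes above the 50th percentile, fewer members were tested, and 9 markers of lipid-associated macrophages, 5 fetal genes and 8 p53 targets were higher. With library weights 4 cholesterol genes were lower. Leaving out each library gave 1 to 11 lower genes of cell division, 0 to 17 of cholesterol synthesis and 4 to 5 of the growth hormone axis. It gave 11 to 14 higher markers of lipid-associated macrophages, 7 to 10 fetal genes and 13 to 14 p53 targets. Mki67 and Sqle changed sign and were called without control replicate 1 (-0.98 and -0.58, limma adjusted p = 0.041 and 0.0465), and over all libraries left out in turn their log2 fold changes ran up to 0.35 and 0.59. Of 185 called named genes 126 were called under every alternative in which they were tested. The causes were not tested. The planned count models were not run because the deposited unit is log2. The voom fit on recovered reads (1488 calls) was chosen after seeing the data. The difference detectable at this depth was not measured.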
